A study of Mus musculus with 4 samples.

Results

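Prostaglandin synthases and prostaglandin receptors were examined in the cardiac ventricle at baseline, in Esrra knockout mice, which lack the nuclear receptor ERRα, and in wild-type controls. The set holds 8 named genes (Ptgds, Ptgis, Ptgs1, Ptgs2, Ptgfr, Ptger3, Ptger4 and Ptgir), of which 7 were measured here, by 11 probe sets, among 8251 genes with a probe set of their own on the array. No probe set annotated to Ptgs1 alone was found, so that gene was not analysed. The genes were chosen by their place in the prostaglandin pathway, with the knockout and wild-type signals of these same arrays already known. Their differences between genotypes are therefore given as descriptions, without a p-value. RNA from 2 knockout and 2 wild-type ventricle samples was hybridised to 1 one-colour Affymetrix array each, and the titles number the samples 1 and 2 within a genotype. The strain, sex and age of the mice, the design of the targeted allele and whether a sample pooled animals are not given in the sources used here. Nothing says that the samples were separate animals, so any p-value reflects only how far these samples spread, and that spread may be technical.

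Prostaglandins are short-lived lipid signals made from arachidonic acid. Phospholipases free the fatty acid from membranes, the cyclooxygenases Ptgs1 and Ptgs2 turn it into an unstable intermediate, and terminal synthases convert that intermediate into single prostanoids. Ptgds makes prostaglandin D, Ptgis makes prostacyclin, and each product acts on its own G-protein-coupled receptors. In the heart, prostacyclin from vessel walls widens vessels and restrains platelets, and the prostaglandin F receptor Ptgfr, which couples to the Gq protein, is known for driving growth of cardiomyocytes in culture. ERRα binds a nuclear receptor half-site, AGGTCA, in an extended form, AAGGTCA.

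The promoters of Ptgfr and Ptgds are shown because these genes had the member probe sets with the clearest separation of the genotypes, and because the deleted factor is a DNA-binding receptor. Each sequence is the 250 bases before the annotated start, from the RefSeq promoter table of build GRCm38.p6, with matches to AGGTCA on either strand in capitals. The Ptgfr window lies at chr3:151837529-151837778 on the minus strand and the Ptgds window at chr2:25469750-25469999 on the minus strand.
Ptgfr: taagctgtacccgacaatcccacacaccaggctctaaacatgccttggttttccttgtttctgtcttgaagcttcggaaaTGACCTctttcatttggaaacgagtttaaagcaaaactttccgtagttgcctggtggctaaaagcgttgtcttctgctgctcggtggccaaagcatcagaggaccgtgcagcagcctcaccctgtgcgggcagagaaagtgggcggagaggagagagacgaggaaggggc
Ptgds: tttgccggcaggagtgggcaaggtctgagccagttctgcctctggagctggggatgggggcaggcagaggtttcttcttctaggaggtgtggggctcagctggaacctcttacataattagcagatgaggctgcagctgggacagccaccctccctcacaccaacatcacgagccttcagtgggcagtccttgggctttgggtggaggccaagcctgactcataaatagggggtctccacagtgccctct

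Ptgfr held 1 match to AGGTCA, on the strand opposite to the gene and beginning 170 bases before the start. Matches to this half-site occurred in 14.02% of all 32851 windows of that length. The extended form AAGGTCA was in neither window, nor in those of Ptgs1, Ptgs2, Ptger3, Ptger4 and Ptgir, against 4.08% of all windows. The TNAAGGTCA form, in 1.14% of windows, and the TATAAA form, in 12.37%, were also in none of the 7. TNAAGGTCA contains AAGGTCA, which contains AGGTCA, so these searches overlap. The Ptgds window had 58.4% GC and 2 CpG dinucleotides, and the Ptgfr window 52.0% GC and 10 CpG dinucleotides. A missing match says only that these letters are not in this stretch.

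The targeted gene was checked first. On 102145_f_at Esrra gave 2688 and 2828 in wild type and 83.6 and 55.2 in knockout. Signals under 110, the 20th percentile of all values, were set to that floor before log2 was taken, so this fall was at least 25.1-fold (limma adjusted p = 0.0441). Another Esrra probe set had 8598 and 8039 against 922 and 1050, which did not pass (limma adjusted p = 0.179). This was the single call among 7453 probe sets, and it was lost on leaving out any 1 of the 4 arrays. Probe sets entered the test when their mean over the arrays reached 350.6, the 40th percentile. Ventricular cardiomyocyte markers were strong on every array, with Myl2, the ventricular myosin light chain, between 154809 and 205416. The ratio of 5′ to 3′ signal of β-actin, a sign of RNA quality, was 0.966 and 0.909 in wild type and 0.694 and 0.813 in knockout. That of Gapdh, the other control, differed less, with 1.039 and 1.015 in wild type and 0.994 and 0.968 in knockout.

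Among the members, Ptgfr had a several-fold higher signal in knockout, Ptgds had a higher signal on 1 of its 3 probe sets, and Ptgis overlapped between genotypes. Ptgs2, Ptger3, Ptger4 and Ptgir stayed below the filter. The plot of signals by array shows all 11 probe sets.

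**Figure D1:**
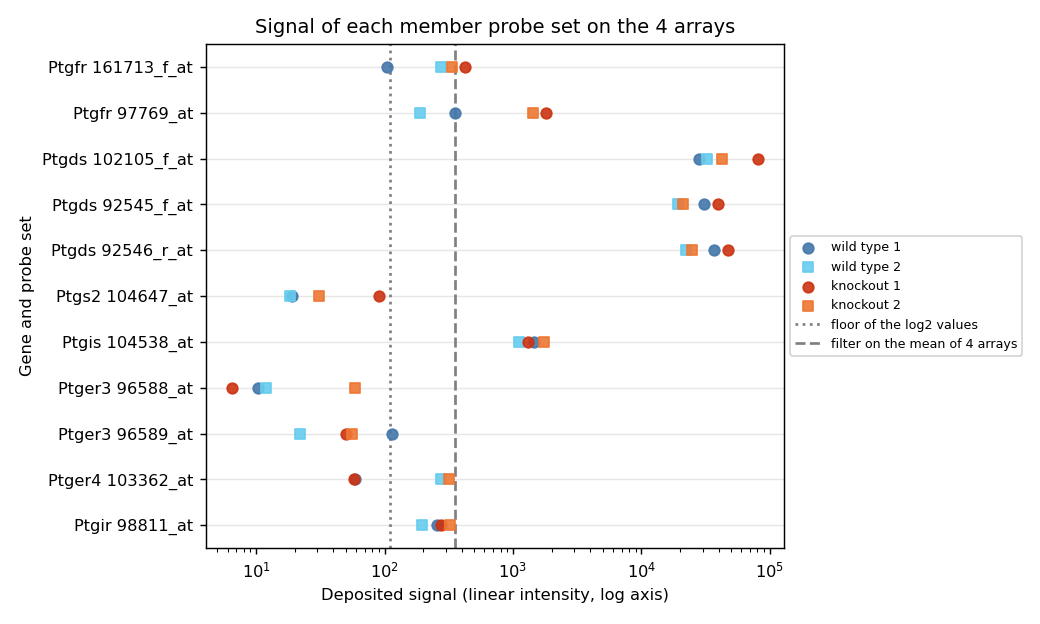
Deposited signal (linear intensity, log axis) of the 11 member probe sets, 1 point per array, wild type in blue and knockout in red and orange; the dotted line is the floor of 110 and the dashed line the filter of 350.6 on the mean of 4 arrays. Ptgfr 97769_at has both knockout arrays far to the right of both wild-type arrays, whereas the points of Ptgis and of the lower 2 Ptgds probe sets interleave.

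Ptgds, the lipocalin-type prostaglandin D synthase, is a secreted protein that also carries small lipophilic molecules. It has 3 probe sets on the array. On 102105_f_at the wild-type arrays gave 28167 and 32340 and the knockout arrays 80273 and 42072. Both knockout values were above both wild-type values, with a mean of 30253 ± 2950 in wild type and 61172 ± 27012 in knockout (SD, n = 2 each; log2 difference 0.95, SE 0.37). Much of this rested on knockout 1, which was 2.65 times the wild-type mean, while knockout 2 was 1.39 times.

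The other Ptgds probe sets did not separate the genotypes. On 92545_f_at wild type gave 30915 and 19309 and knockout gave 39250 and 21130 (log2 difference 0.24, SE 0.42). On 92546_r_at wild type gave 36910 and 22120 and knockout 47552 and 24691 (log2 difference 0.26, SE 0.44). Both ordered the arrays as knockout 1, wild type 1, knockout 2, wild type 2, so the arrays numbered 1 were above those numbered 2 in either genotype. The 3 probe sets agreed in placing knockout 1 highest and disagreed on wild type 1, which was lowest on 102105_f_at and the second highest on the others. Without knockout 1 the log2 difference of 102105_f_at was 0.48 and those of the other probe sets were -0.21 and -0.21. In the array maker's naming an f or r suffix marks probes that can match related sequences or that were designed with relaxed rules.

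Ptgis, the prostacyclin synthase of endothelium and smooth muscle, gave 1453 and 1117 in wild type and 1313 and 1729 in knockout. The genotypes overlapped, since knockout 1 lay between the wild-type arrays. The means were 1285 ± 238 and 1521 ± 294 (SD, n = 2 each; log2 difference 0.24, SE 0.27), a difference smaller than its standard error.

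Ptgs2, the inducible cyclooxygenase, gave 19.0 and 18.4 in wild type and 90.2 and 31.1 in knockout. All 4 signals were under the floor of 110, so they have no order here and no fold change is given. In both genotypes Ptgs2 was thus not measurable above the 20th percentile of all values.

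Ptgfr, the receptor for prostaglandin F, had the largest member difference. On 97769_at wild type gave 352 and 188 and knockout gave 1795 and 1443. The lower knockout array was well above the higher wild-type array, and the knockout arrays were 6.64 and 5.34 times the wild-type mean. The means were 270 ± 116 and 1619 ± 248 (SD, n = 2 each), a 6.25-fold difference on the log2 scale (log2 difference 2.64, SE 0.37). It ranked 3rd among the 7453 probe sets when these were ordered from the highest to the lowest signed difference. Falls, such as that of Esrra, were at the other end of this order. The wild-type mean was under the filter, so this probe set was kept only through its knockout signals.

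A second Ptgfr probe set, 161713_f_at, gave 105 and 277 in wild type and 423 and 336 in knockout. It was again higher on both knockout arrays, but its mean of 285 lay under the filter, the wild-type arrays differed 2.63-fold from each other, and 1 of them was under the floor. The log2 difference was 1.11, and 0.16 with the floor set at the 40th percentile. It was 0.44 without wild type 1 and 1.78 without wild type 2.

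The remaining receptors were weak. Ptgir, the prostacyclin receptor, which raises cyclic AMP, gave 256 and 194 in wild type and 277 and 322 in knockout. Both knockout arrays were higher, by a log2 difference of 0.42, which became 0 with the floor at the 40th percentile. Ptger4, a prostaglandin E receptor that also raises cyclic AMP, gave 58.9 and 276 in wild type and 57.4 and 319 in knockout. It differed more between arrays of a genotype, 4.68-fold and 5.56-fold, than between genotypes, and the arrays numbered 2 were the higher ones in both.

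Ptger3, the prostaglandin E receptor that lowers cyclic AMP, was at or near the floor on both of its probe sets. On 96588_at the signals were 10.3 and 11.9 in wild type and 6.5 and 58.9 in knockout, all under the floor. On 96589_at they were 114.5 and 22.1 in wild type and 50.2 and 55.7 in knockout, with only wild type 1 above it. No fold change is given for either.

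Of the 11 member probe sets 5 passed the filter, from 3 genes. Of these, 2 were at least 1.5-fold higher in knockout without overlap of the genotypes, Ptgfr 97769_at and Ptgds 102105_f_at, and 0 were lower in that way. Over all 7453 probe sets 6.84% were higher by this rule and 4.2% lower (510 and 313 probe sets). Regardless of size, 20.7% of all probe sets were higher in knockout without overlap. Of the 5, 0 were called by limma, against 0.0134% of all probe sets. Since the members were chosen on this contrast, nothing is read from these shares. The higher share of all probe sets also moved with the scaling between arrays: 391 were higher and 420 lower after quantile normalization, and 324 and 527 after median scaling, which moved the median of all log2 differences from 0.03 to -0.10. Under median scaling Ptgfr 97769_at stood at 2.52 and Ptgds 102105_f_at at 0.82.

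**Figure D2:**
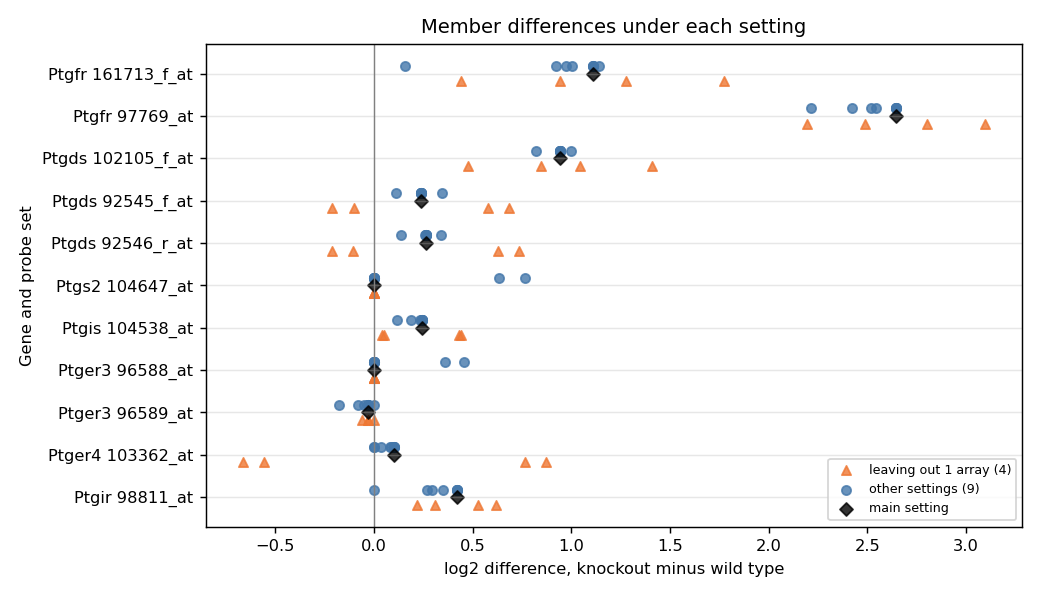
Difference between knockout and wild type (log2) for the 11 member probe sets under the main setting (black diamonds), 9 other processing settings (blue circles) and leaving out each array (orange triangles). Ptgfr 97769_at lies between 2.19 and 3.10, both ends from leaving out an array. The lower Ptgds probe sets and Ptger4, whose genotypes overlap, cross 0 when an array is left out. Groups that do not overlap cannot cross 0 in this way.

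The differences of all members under each setting are plotted together. Ptgfr 97769_at ran from 2.19 without wild type 2 to 3.10 without wild type 1. Ptgds 102105_f_at ran from 0.48 without knockout 1 to 1.41 without knockout 2. Ptger4 ran from -0.66 to 0.87, and its sign depended on which array was left out. Leaving out an array cannot turn the sign of groups that do not overlap. These ranges therefore restate the overlap and say nothing about stability.

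The other genes of the pathway were taken from lists of 48 eicosanoid genes, of which 34 were measured and 18 had a probe set above the filter. None of their 22 kept probe sets passed limma's test in either direction (adjusted p from 0.694 to 0.984). At an unadjusted p under 0.05 in limma there were 3 of the 22, all higher in knockout, against 6.79% of all 7453 probe sets (506) in either direction. Of the 22, 16 had a higher mean in knockout and 6 a lower one, against 53.2% higher over all probe sets, and the median log2 difference was 0.30 against 0.03. Under median scaling the medians were 0.17 and -0.10. The plot of pathway differences shows them by step.

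**Figure D3:**
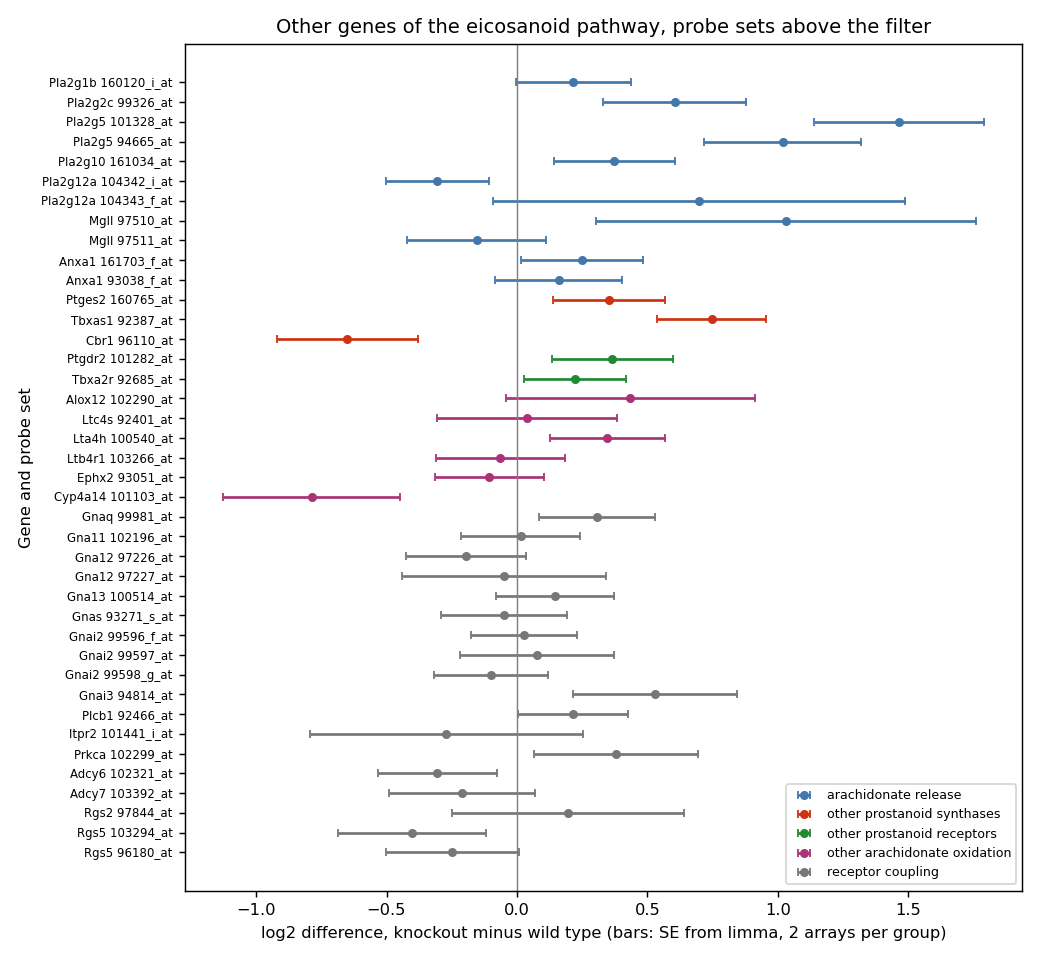
Difference between knockout and wild type (log2, horizontal bars are the SE from limma, 2 arrays per group) of each pathway probe set above the filter, coloured by step. The blue points of arachidonate release lie mostly right of 0, the highest being a Pla2g5 probe set at 1.46. The grey points of receptor coupling lie on both sides.

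Arachidonate release is the step that supplies every synthase above. Its 11 kept probe sets had 9 higher and 2 lower means in knockout, and 3 were at least 1.5-fold higher without overlap. Of these 3, 2 were of Pla2g5, and the count was 2 under median scaling. Over all 7453 probe sets 6.84% were higher by this rule. Regardless of size, 4 of the 11 were higher without overlap and 1 was lower, against 20.7% of all probe sets higher. The 11 came from 7 genes. Both kept Anxa1 probe sets were higher but overlapped (log2 differences 0.25 and 0.16). Also higher with overlap was Mgll 97510_at (1.03), whose wild-type mean of 283 was under the filter. The other Mgll probe set was lower (-0.15). Pla2g5, a secreted phospholipase of heart and macrophages, was higher on both of its probe sets. On 101328_at wild type gave 317 and 544 and knockout gave 1081 and 1215 (log2 difference 1.46, SE 0.33, limma adjusted p = 0.694). On 94665_at wild type gave 972 and 1143 and knockout gave 1702 and 2676 (log2 difference 1.02, SE 0.30, limma adjusted p = 0.694).

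These Pla2g5 probe sets did not overlap between genotypes, and neither passed the test. Pla2g2c, another secreted phospholipase, gave 1643 and 1174 in wild type and 2371 and 1883 in knockout (log2 difference 0.61, SE 0.27, limma adjusted p = 0.760). Cytosolic Pla2g4a, the enzyme best known for supplying cyclooxygenases, was below the filter at 262 and 291 against 398 and 304.

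Among the other terminal enzymes, Tbxas1, the thromboxane synthase, gave 696 and 692 in wild type and 1266 and 1071 in knockout (log2 difference 0.75, SE 0.21, limma adjusted p = 0.694). A second Tbxas1 probe set under the filter gave 242 and 322 against 233 and 372, which overlapped. Cbr1, a carbonyl reductase that can convert prostaglandin E to prostaglandin F, gave 641 and 758 in wild type and 531 and 372 in knockout (log2 difference -0.65, SE 0.27, limma adjusted p = 0.745). Ptges, the inducible prostaglandin E synthase, was under the filter with 303 and 269 against 160 and 219, so both knockout arrays were lower. Ptges2 gave 4147 and 3448 against 4960 and 4696 (log2 difference 0.35). These terminal enzymes therefore had values in both directions, and none passed.

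Other prostanoid receptors differed little. Ptgdr2, a receptor for the Ptgds product, gave 2004 and 1696 in wild type and 2630 and 2144 in knockout (log2 difference 0.37, SE 0.23). Tbxa2r, the thromboxane receptor, gave 355 and 368 against 419 and 424 (log2 difference 0.22, SE 0.19). Ptgdr, the other receptor for prostaglandin D, was under the floor on all 4 arrays, and Ptger1, Ptger2 and the Ptgfr partner Ptgfrn were under the filter. In the breakdown list both measured genes were under the filter. Hpgd, the dehydrogenase that inactivates prostaglandins, gave 219 and 297 against 331 and 104, which overlapped. Ptgr1, a prostaglandin reductase, gave 288 and 212 against 503 and 343, higher on both knockout arrays (log2 difference 0.75).

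The list of other arachidonate oxidation, which covers lipoxygenases, leukotriene genes and cytochromes, had 3 higher and 3 lower means among 6 kept probe sets and a median of -0.01, which ran from -0.15 without knockout 2 to 0.08 without wild type 1 and was -0.14 under median scaling. Its Cyp4a14, a fatty acid hydroxylase, gave 990 and 585 in wild type and 390 and 500 in knockout (log2 difference -0.79, SE 0.34, limma adjusted p = 0.748). The proteins that couple prostanoid receptors to calcium and cyclic AMP had 9 higher and 9 lower means among 18 kept probe sets, with a median of -0.02, and 6 higher and 12 lower under median scaling. Gnaq, the α subunit through which Ptgfr signals, gave 397 and 342 against 498 and 417 (log2 difference 0.31, SE 0.22). No kept coupling probe set was 1.5-fold apart without overlap, against 6.84% higher and 4.2% lower over all 7453. With no filter 1 was higher and 2 were lower by this rule. Of the kept ones 0 passed (0 at an unadjusted p under 0.05 by limma).

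Ptgs2 belongs to the genes induced within minutes of a stimulus, and others of that kind were read beside it. Of 16 kept probe sets of immediate early genes and inflammatory inducers, 10 had a higher and 6 a lower mean, with a median of 0.21, and 0 passed limma's test (2 of the 16 at an unadjusted p under 0.05, against 6.79% of all probe sets). Fos gave 153 and 213 in wild type and 870 and 524 in knockout on 160901_at (log2 difference 1.90, SE 0.35, limma adjusted p = 0.656). It was 1 of the 2 at an unadjusted p under 0.05 by limma. Its wild-type mean of 183 was under the filter, so this probe set was kept only through its knockout signals. The difference was 0.99 with the floor at the 40th percentile. A second Fos probe set under the filter gave 224 and 28.9 against 165 and 191. Junb gave 770 and 936 against 1440 and 1349 on 102363_r_at (log2 difference 0.72, SE 0.22, limma adjusted p = 0.694). Its other kept probe set, 102362_i_at, gave 367 and 540 against 495 and 752, which overlapped (log2 difference 0.46). Ier3 gave 2181 and 4026 against 4452 and 5337 (log2 difference 0.72, SE 0.36, limma adjusted p = 0.791). The list's median was 0.08 under median scaling, with 8 higher and 8 lower, and ran from -0.09 without wild type 1 to 0.40 without wild type 2. Il1b and Il6, cytokines that induce Ptgs2, were under the floor on all 4 arrays, as Ptgs2 was. Tnf, another cytokine of the list, was under the filter but above the floor on all 4 arrays. It gave 111.5 and 178.5 in wild type and 176.9 and 280.3 in knockout, which overlapped (log2 difference 0.66).

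The kept probe sets with profiles nearest to the 2 separated members over the 4 arrays were found by the root mean square distance between log2 signals, each less its mean. Nearest to Ptgfr 97769_at were Cox6b2, the testis form of a cytochrome oxidase subunit, at a distance of 0.25, the chemokine Cxcl1 at 0.29, Saa2, a serum amyloid A protein, at 0.31, the coxsackievirus receptor Cxadr at 0.33 and the proteasome assembly factor Psmg3 at 0.33. All 5 had wild-type means between 118 and 295, under the filter, as Ptgfr had. Nearest to Ptgds 102105_f_at were a different Saa2 probe set at 0.09, Lef1 and Tmem129 at 0.12, and Chpf and Zbtb22 at 0.13. Each of these 5 was highest on knockout 1. None of these 10 probe sets passed limma's test (adjusted p from 0.430 to 0.799).

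**Figure D4:**
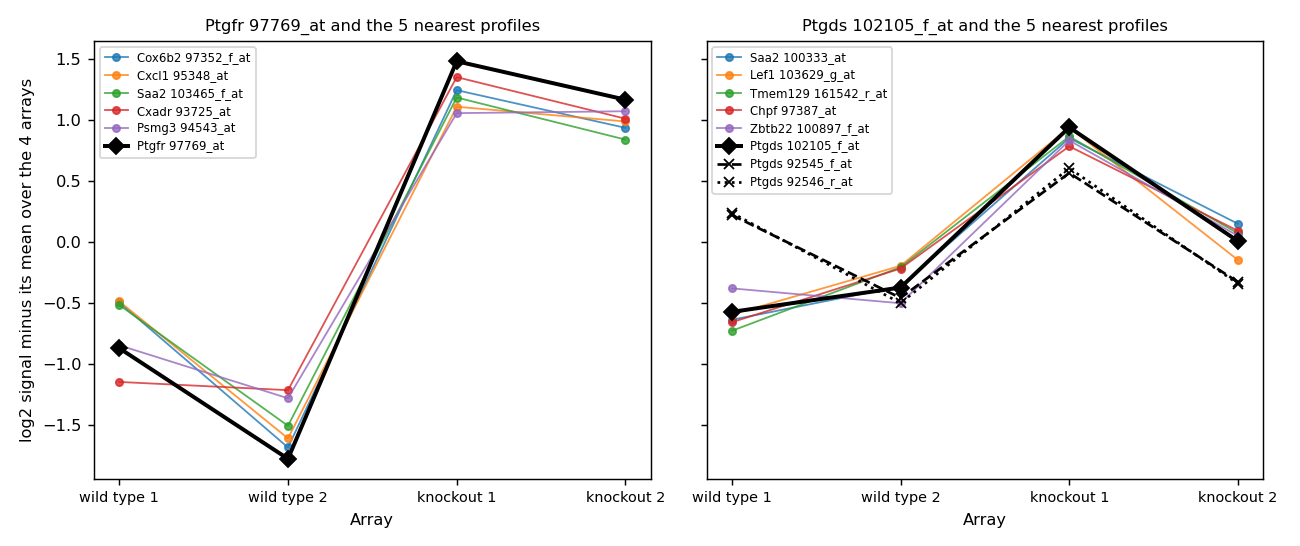
Log2 signal less its mean over the 4 arrays, for Ptgfr 97769_at (left, black) and Ptgds 102105_f_at (right, black) with the 5 nearest probe sets of other genes in colour. The other 2 Ptgds probe sets (dashed and dotted, right) lie above 102105_f_at on wild type 1 and below it on both knockout arrays.

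Prostanoid genes are made by many cell types of the ventricle, and in bulk tissue a change in the number of cells of a type and a change in RNA per cell cannot be told apart. Atrial markers were higher in knockout on all 5 kept probe sets, with a median log2 difference of 0.79, and their signal summed over all probe sets of the list was 11839 to 14864 in wild type and 23343 to 23917 in knockout. None of the 6 atrial probe sets was under the floor on all arrays. Myl4 gave 1052 and 1494 in wild type and 2200.5 and 3663 in knockout on 160487_at. Stard10 gave 2340 and 1718 against 4102 and 4237, Myl7 gave 1572 and 1707 against 2380 and 3373, and Nppa, the atrial natriuretic peptide, gave 7980 and 5605 against 12669 and 9603. No list of markers had a probe set that passed.

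**Figure D5:**
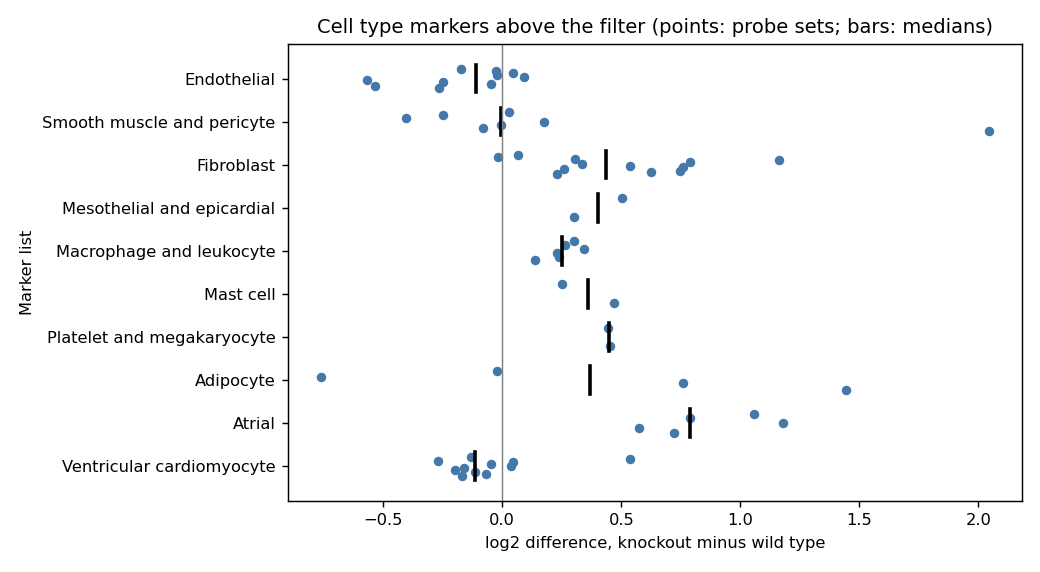
Difference between knockout and wild type (log2) of cell type marker probe sets above the filter, 1 point per probe set, with the median of each list as a black bar. Atrial markers all lie right of 0 and endothelial and ventricular cardiomyocyte medians lie left of it.

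Fibroblast markers were higher on 11 of 12 kept probe sets, with a median of 0.43 and a summed signal of 70788 to 81205 in wild type and 96021 to 101254 in knockout. Those at least 1.5-fold apart without overlap were single probe sets of the collagens Col1a1 and Col1a2, of Lum and of Pdgfra, with log2 differences of 0.63, 0.74, 0.79 and 1.16. Other kept probe sets of Col1a1, Col1a2 and Pdgfra differed less, by 0.23, 0.26 and 0.31. By this rule 4 of the 12 were higher, against 6.84% of all 7453 probe sets. Smooth muscle and pericyte markers had 3 higher and 4 lower means, with a median of -0.00 and sums of 14225 to 14401 against 21238 to 28195. The higher sum rested on 1 gene, since without Acta2 the sums were 10089.4 and 11492.5 in wild type and 9442 and 10322 in knockout. Acta2, smooth muscle α-actin, gave 4135 and 2909 against 18753 and 10916 (log2 difference 2.04, SE 0.36, limma adjusted p = 0.656). Endothelial markers, the cells in which Ptgis is best known, had 2 higher and 8 lower means, a median of -0.11 and sums of 34379 to 40823 against 30948 to 33926.

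Macrophage and leukocyte markers were higher on 6 of 6 kept probe sets, with a median of 0.25 and sums of 12076 to 12501 against 14748 to 15029. Under the filter, however, the macrophage marker Adgre1 was lower in knockout on 103507_at, with 396.5 and 499.7 against 176 and 202 (log2 difference -1.24), and the leukocyte marker Ptprc on 101048_at, with 214 and 201 against 47.7 and 144 (log2 difference -0.72). The other Adgre1 probe set overlapped between genotypes and the other 2 of Ptprc were under the floor on all arrays. With no filter 10 macrophage and leukocyte probe sets were higher and 2 lower. By the rule of 1.5-fold without overlap 2 were higher and 2 lower. The higher ones were Itgam, with 88.3 and 81.3 against 156 and 330 (log2 difference 1.04), and Cd68 on 162173_i_at, with 39.3 and 26.9 against 200 and 273 (1.09). Both had their wild-type signals under the floor. Platelet and megakaryocyte markers, cells in which Tbxas1 is abundant, were higher on 2 of 2 with a median of 0.45 and sums of 1169 to 1252 against 1516 to 1710, and Gp1bb and Itgb3 were under the floor throughout. Mast cell markers were higher on 2 of 2, both of Tpsb2, with a median of 0.36 and sums of 2978 to 3425 against 3444 to 4490, and Mcpt4 was under the floor throughout. Without wild type 1 the mast cell median was 0.08, with 1 higher and 1 lower. Cma1, a mast cell protease, was under the filter and lower in knockout on 102407_at, with 412 and 299 against 268 and 64.5 (log2 difference -1.03). With no filter 7 mast cell probe sets were higher and 1 lower. By the rule of 1.5-fold without overlap, 2 of these were higher and 1 was lower. Mesothelial and epicardial markers were higher on 2 of 2 with a median of 0.40 and sums of 1873 to 1957 against 2529 to 2545, and both Krt19 probe sets were under the floor. Adipocyte markers had 2 higher and 2 lower means with a median of 0.37 and sums of 3821 to 4626 against 4570 to 5512, and Adipoq gave 189 and 297 against 686 and 604. The wild-type mean of Adipoq, 243, was under the filter, so it was kept only through its knockout signals. The same held for Gp9 of the platelet list and Wt1 of the epicardial list, with wild-type means of 322 and 309. Lep was higher on 1 probe set (log2 difference 0.76) and lower on another (-0.76), where the genotypes overlapped. Ventricular cardiomyocyte markers had 3 higher and 8 lower means with a median of -0.11 and sums of 1125331 to 1148570 against 957933 to 1140321. The part of any of these lists, or of the β-actin ratio, in the values of Ptgfr, Ptgds, Pla2g5 or Tbxas1 was not tested.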

How the data were processed

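Ventricle RNA from 2 ERRα knockout and 2 wild-type samples was measured on 4 arrays. The deposited values are a linear intensity per probe set, already on 1 scale (mean without the top and bottom 2% of 1482 to 1484 on each array); the summary method, background correction and genome build are not given in the sources used here. The number of arrays limits the precision. Of 12422 probe sets besides 66 controls, 10833 had 1 gene symbol, 396 several and 1193 none; 10817 matched RefSeq (GRCm38.p6) by gene ID and took its symbol. Signals were floored at the 20th percentile (110), log2 was taken, and 7453 probe sets with a mean at or above the 40th percentile (350.6) were fitted with limma 3.58.1 in R 4.3.3 (lmFit, eBayes; Benjamini-Hochberg over all, threshold 0.05). The steps were tested on simulated data. With 2 arrays a group the smallest two-sided p of an exact permutation test is 0.333, so no such test was run. The members and all lists were chosen with earlier results of these data known. Outside the members, the genes named are Esrra, list genes past the threshold or at least 1.5-fold apart without overlap, and the 5 nearest profiles. Named after values were seen were Anxa1, Mgll, Pla2g4a, Ptges, Ptges2, Gnaq, Il1b, Il6, Tnf, Myl2, Tpsb2, Gp9, Wt1, Itgam, Cd68, Adgre1, Ptprc and Cma1. So were the other prostanoid receptors, the breakdown genes and markers under the floor. Alternatives covered the floor, pseudocount, filter, scaling, prior, sample number as a block and leaving out each array. All motif searches, including TNAAGGTCA and TATAAA, used both strands, and AGGTCA was added after the windows were seen.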

Additional observations from a re-analysis of the deposited data

How the results depend on the processing

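Of the 13 alternatives, 4 (both filters, the prior and the block) leave a probe set's log2 difference as it is, and leaving out 1 of 2 arrays cannot move it by more than the SD within groups or turn the sign of groups that do not overlap, so those settings say nothing about the stability of a difference. Under the floors, the pseudocount and the scalings, 8 member differences moved by more than that SD, all of probe sets under the filter: Ptgs2 was 0.77 under a 5th-percentile floor and 0.63 as log2(signal + 50). The count of members at least 1.5-fold apart without overlap was 2, and between 1 and 4 without any 1 array: 1 without knockout replicate 1 and 4 without knockout replicate 2. The count of all probe sets past the threshold was 1. It was 0 with the floor at the 5th or 40th percentile, with log2(signal + 50), with no filter and in the 4 fits that left out an array (lowest 0, highest 0), and 2 with the stricter filter and with the trend and robust prior. With the replicate block it was 0. Deviations of same-numbered arrays correlated at 0.0113 over probe sets. With only 2 numbers, this value cannot tell whether same-numbered samples shared more than the number. Pathway probe sets past the threshold stayed at 0 in all 13. Of the other named probe sets, only those of Esrra changed side of the threshold under any alternative, in 11 values; most were named because the genotypes did not overlap. The causes of these shifts were not tested. Signals near the floor limit what can be said of Ptgs2, Ptger3 and Ptger4.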
